A study of Bos taurus with 15 samples.

Results

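The cytotoxic effector genes described here were GZMA, GZMB, PRF1, GNLY, NKG7, IFNG and FASLG, chosen by symbol from the gene table of the cattle digestive tract libraries. The 7 symbols covered 8 of the 27270 gene identifiers, because GZMB was listed under 2 of them. Their levels were measured in T cells with CD8A, in T cells with CD4 and in NCR1 cells of newborn (NB) and adult (AD) gut and of NB liver.

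Cytotoxic lymphocytes kill a bound target cell by emptying preformed granules into the contact site. Perforin (PRF1) opens the target membrane and lets granzymes, which are serine proteases, reach the cytosol. Granulysin (GNLY) is a small membrane-lysing protein of the same granules that also acts on bacteria, and NKG7 is a granule membrane protein needed for efficient degranulation. Killing can also run through FASLG, a surface ligand that triggers the death receptor FAS, while IFNG is the secreted interferon that activates macrophages and raises antigen presentation. In the gut these genes are known from CD8 T cells of the epithelium and from natural killer (NK) and related innate cells, and NCR1 (NKp46) is a receptor of cattle NK cells.

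The libraries were droplet single-cell RNA libraries of Holstein cattle, with 1 library for each tissue and stage. Of the 15 libraries, 11 from gut and liver were analysed, namely NB duodenum, jejunum, ileum, cecum, colon, rectum and liver and AD duodenum, jejunum, cecum and colon. By the study's methods, all 4 AD tissues came from 1 lactating cow and the NB tissues from 3 calves, and which calf gave which NB library is not stated in the sources used here. The outer muscle layer was removed and the tissue was dissociated with enzymes that differed by stage and tissue (a lamina propria kit for AD duodenum and cecum, a multi-tissue kit for AD jejunum and colon, EDTA and trypsin before the lamina propria kit for NB intestine, and a collagenase, papain and DNase mix for NB liver). Stage, animal and dissociation therefore cannot be told apart, and no test of stage was possible.

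The 11 libraries held 48674267 to 117505536 UMIs (unique molecular identifiers, each counting 1 captured transcript), and 91243 of 129642 barcodes were kept after filters on genes, UMIs, mitochondrial share and doublets. A barcode stands for a droplet and usually 1 cell. T cell barcodes with CD8A (CD3E and CD8A detected, CD4 at 0) are called CD8A barcodes below, those with CD4 (CD3E and CD4 detected, CD8A at 0) CD4 barcodes, and those with NCR1 but no CD3E NCR1 barcodes. At least 50 barcodes of both T cell classes were found in 8 libraries, with 140 to 3045 CD8A and 53 to 2929 CD4 barcodes each. Levels are given as CPM, the UMIs of a gene per 1e6 UMIs of the class in that library, and shares as the percent of barcodes with at least 1 UMI. All intervals are 95% intervals that cover counting error only, and barcodes of 1 library share their source. The CPM intervals treat UMIs as independent and leave out the sampling of cells. They are too narrow where the UMIs of a gene lay in few barcodes.

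The CD8A class was checked against markers that did not define it. CD8B, the partner chain of CD8A on conventional CD8 T cells, was found in 34.1% of the CD8A barcodes of NB liver and in 71.1% of those of AD jejunum, the lowest and highest of the 8 libraries. Transcripts of other cell types were also present in these barcodes. JCHAIN, a plasma cell gene, was detected in 27.6% of the CD8A barcodes of AD cecum and in 85.6% of those of AD duodenum, COL3A1 of fibroblasts in 40.7% in NB cecum and 42.4% in NB rectum, and C1QA of macrophages in 30.8% in NB liver. The CD4 class held such transcripts too. None of COL1A2, COL3A1, C1QA, EPCAM and CPA3 was found in 49 of 147 CD4 barcodes of NB cecum and 154 of 420 of NB rectum. For CD8A barcodes these counts were 51 of 140 and 63 of 158. In AD duodenum 2825 of 2929 CD4 barcodes held none of them. Gamma delta T cells could not be separated from other T cells here. Any 2 of the 15 libraries shared 2 to 37 kept barcode sequences, at most 0.483% of the smaller library.

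GZMB was counted under ENSBTAG00000053015 and ENSBTAG00000010057, which are kept apart below as GZMB-a and GZMB-b. The other identifiers were ENSBTAG00000021958 for GZMA, ENSBTAG00000001008 for PRF1, ENSBTAG00000053497 for GNLY, ENSBTAG00000009137 for NKG7, ENSBTAG00000012529 for IFNG and ENSBTAG00000032808 for FASLG. In the RefSeq gene order of the ARS-UCD2.0 assembly, a separate gene named gzmA lay between GZMA and GZMK, GZMB lay between LOC100139881 and LOC505326, and GNLY lay next to LOC616323. Reads shared with near-identical neighbours could have been split between such genes, so the levels of the granzymes and of GNLY carry that uncertainty.

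The first comparison asked whether the effector genes were higher in CD8A than in CD4 barcodes of the same library. Among the members, GZMA, GZMB-b, PRF1 and NKG7 showed the largest differences toward CD8A barcodes, and GZMB-a, IFNG and FASLG smaller ones. GZMB-a was not higher in NB colon and IFNG not in AD jejunum. GNLY was higher in most libraries but not in NB colon and NB liver. Summed counts were fitted by edgeR's quasi-likelihood test with the library as a block over the 8 libraries, leaving out CD3E, CD8A and CD4 themselves. The p-values below are Benjamini-Hochberg adjusted over 9154 genes and measure the spread between libraries, some of which came from the same animal. By this fit 7 of the 8 member identifiers were higher in CD8A barcodes, against 8.08% of all genes tested, and 0 were higher in CD4 barcodes, against 7.24% (also 0 at an unadjusted p under 0.05 and by pydeseq2).

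GZMA, a granzyme with trypsin-like activity, was detected at 208 CPM in the CD8A barcodes of NB cecum, 7.16 in NB colon, 396 in NB rectum and 20.2 in NB liver. In AD duodenum, jejunum, cecum and colon it reached 214, 916, 505 and 769 CPM. The CD4 barcodes held 0 to 52.1 CPM, and the CD8A level was above the CD4 level in 8 of 8 libraries, with overlapping intervals in NB colon and NB liver. The ranges of the classes overlapped across libraries, since CD8A barcodes of NB colon and NB liver were no higher than some CD4 pools. The fitted difference was 4.45 on the log2 scale (SE 0.48, edgeR adjusted p = 0.000126). The neighbouring gzmA, which is not a member, behaved alike in this test (log2 difference 4.01, SE 0.52, edgeR adjusted p = 0.000451).

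The identifiers named GZMB differed in pattern. The granzyme known by that name cleaves after aspartate and activates caspases, and which of the cattle identifiers corresponds to it is not given in the sources used here. GZMB-b was measured at 458 CPM in CD8A barcodes of NB cecum, 7.16 in NB colon, 274 in NB rectum and 66.0 in NB liver, and at 328, 1747, 1037 and 1176 CPM in AD duodenum, jejunum, cecum and colon. Its CD4 levels were 0 to 62.7 CPM, and it was higher in CD8A barcodes by 4.77 on the log2 scale (SE 0.52, edgeR adjusted p = 0.000131), in 8 of 8 libraries, with overlapping intervals in NB colon. In the NB libraries few barcodes carried this signal: 17 of 140 in cecum, 1 of 206 in colon, 19 of 158 in rectum and 8 of 681 in liver. Each of the positive barcodes in NB cecum held on average 27.4 UMIs, against 6.42 to 12.9 in the AD libraries. These counts were not scaled to depth, so no difference in level per cell is read from them. The median over all kept barcodes was 7948 UMIs in NB cecum and 3510 to 3853 in the AD libraries.

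GZMB-a was measured in CD8A barcodes at 48.3 CPM in NB cecum, 3.98 in NB colon, 58.7 in NB rectum and 20.6 in NB liver. The AD values were 93.2 CPM in duodenum, 224 in jejunum, 90.9 in cecum and 105 in colon. In CD4 barcodes it was below 50 CPM in every library but NB colon, where 35 UMIs in 2 barcodes gave 54.9 CPM. The log2 difference was 2.68 (SE 0.76, edgeR adjusted p = 0.0354), with CD8A higher in 7 of 8 libraries. The call was lost without NB cecum, AD duodenum, AD jejunum or AD colon, with edgeR adjusted p of 0.0731, 0.118, 0.0998 and 0.112, while the direction stayed. In 3 of the 4 NB libraries its CD8A level lay below that of the background barcodes described further on.

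PRF1, the pore former, separated the classes in all 8 libraries. CD8A barcodes held 55.2 CPM in NB cecum, 42.2 in NB colon, 98.7 in NB rectum and 108 in NB liver, and 141, 318, 220 and 228 CPM in AD duodenum, jejunum, cecum and colon. CD4 barcodes held 2.54 to 27.4 CPM, so that the lowest CD8A value lay above the highest CD4 value. The difference was 4.08 on the log2 scale (SE 0.27, edgeR adjusted p = 3.12e-06). Unlike the granzymes, PRF1 was found in at least 18.6% of the CD8A barcodes of all 4 NB libraries, with shares of 18.6% to 27.6%. These shares were not scaled to depth. With every barcode thinned to the same number of UMIs they were 3.40% to 10.3%, so the NB libraries are not read as alike in PRF1.

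GNLY had the largest standard error of the 8 member identifiers. In CD8A barcodes it was measured at 228 CPM in NB cecum, 15.1 in NB colon, 115 in NB rectum and 30.1 in NB liver, and at 304, 1944, 910 and 1284 CPM in AD duodenum, jejunum, cecum and colon. CD4 barcodes of NB liver held 600 CPM, from 197 UMIs in 10 of 53 barcodes, and those of NB colon 59.6 CPM, both above the CD8A level of the same library. Over the 8 libraries the log2 difference was 2.16 (SE 1.02) and did not pass (edgeR adjusted p = 0.201). Without NB liver it was 2.75 with an edgeR adjusted p of 0.0314, in the AD libraries alone 4.12 with 0.000166, and in the NB libraries alone -0.63 with 0.724.

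NKG7 varied among the CD8A barcodes of the 8 libraries by less than 2-fold. It lay at 494, 499, 615 and 736 CPM in NB cecum, colon, rectum and liver and at 514, 899, 614 and 705 CPM in AD duodenum, jejunum, cecum and colon. From 64.1% to 88.7% of CD8A barcodes held an NKG7 UMI. The CD4 levels were 25.7 to 149 CPM, without overlap between the classes, and the log2 difference was 3.66 (SE 0.17, edgeR adjusted p = 8.35e-07). The highest CD4 level, in AD jejunum, stood in barcodes of which 29.5% also held C1QA. The part of macrophage transcripts in that value was not tested.

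IFNG was higher in CD8A barcodes in 7 of 8 libraries. The CD8A barcodes held 144 CPM in NB cecum, 52.5 in NB colon, 107 in NB rectum and 143 in NB liver, and 52.7, 104, 86.8 and 206 CPM in AD duodenum, jejunum, cecum and colon. In the CD4 barcodes of the 4 NB libraries it was measured at 3.14 to 49.9 CPM, and in those of AD duodenum, jejunum, cecum and colon at 26.3, 160, 28.9 and 137 CPM. AD jejunum was the library in which CD4 barcodes stood above CD8A barcodes, and 17.7% of its CD4 barcodes held an IFNG UMI. The log2 difference was 1.23 (SE 0.31, edgeR adjusted p = 0.0212). It did not pass without NB cecum (0.0567, same test), without AD cecum (0.0634), in the AD libraries alone (0.172), with at least 2 UMIs of CD8A or CD4 (0.0516) or without barcodes holding COL1A2, COL3A1, C1QA, EPCAM or CPA3 (0.127). These last settings also took libraries under the minimum of 50 barcodes, NB liver in the former and NB liver and NB cecum in the latter, so the gate and the loss of libraries cannot be told apart.

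FASLG was detected at low levels in both classes. Its CD8A values were 22.7, 18.3, 83.4 and 33.4 CPM in NB cecum, colon, rectum and liver and 46.1, 55.1, 48.7 and 57.3 CPM in AD duodenum, jejunum, cecum and colon. CD4 values ran from 5.68 to 31.9 CPM. The CD8A level was above the CD4 level in 8 of 8 libraries, by 1.37-fold in NB liver and 14.7-fold in NB rectum at the extremes, though the intervals of the classes overlapped in NB colon and NB liver, and the log2 difference was 1.42 (SE 0.31, edgeR adjusted p = 0.00922).

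**Figure D1:**
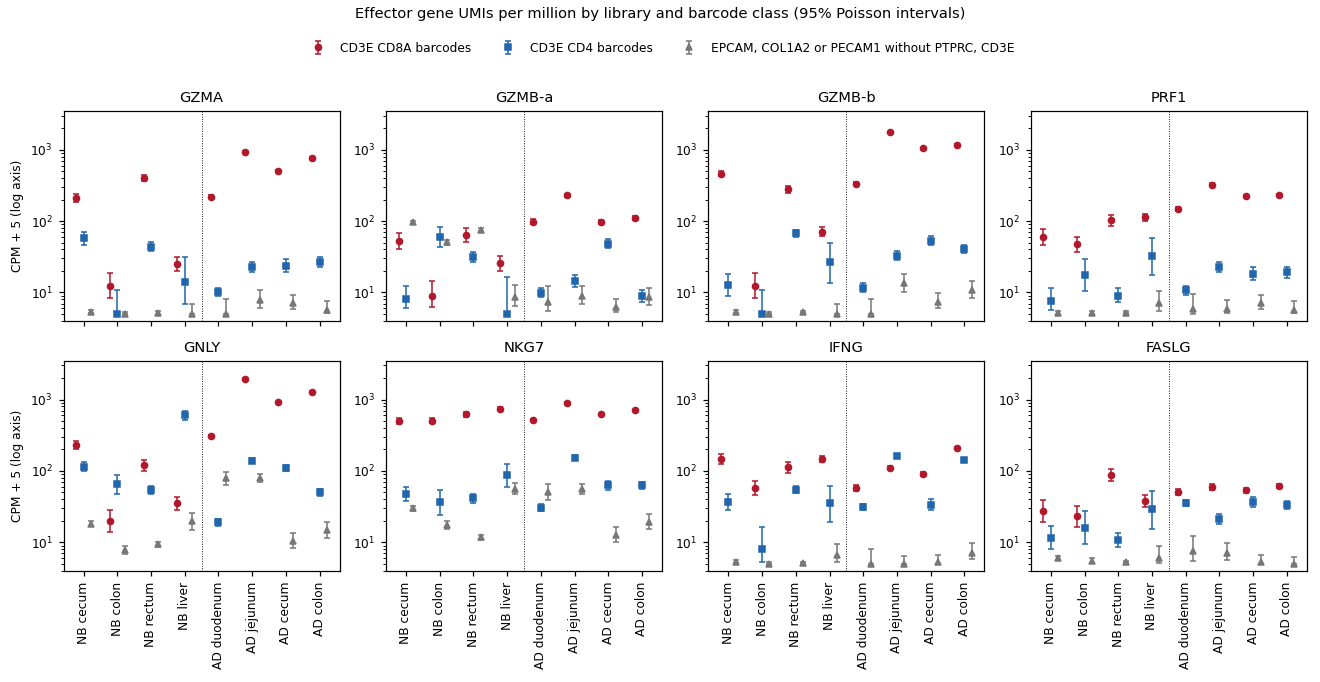
Level of each effector gene identifier (CPM plus 5, log axis) in CD8A barcodes (circles), CD4 barcodes (squares) and barcodes with EPCAM, COL1A2 or PECAM1 but no PTPRC or CD3E (triangles) of 8 libraries, with 95% Poisson intervals. NKG7 and PRF1 lay above the CD4 level in the CD8A barcodes of all 8 libraries, while GZMA, GZMB-b and GNLY dropped to a few UMIs in NB colon.

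Cells that should lack these genes gave the background. Barcodes with EPCAM, COL1A2 or PECAM1 and no PTPRC or CD3E (epithelial, fibroblast and endothelial genes) had median depths of 4514 to 11423.5 UMIs, deeper than most CD8A classes at 3063 to 5756.5 UMIs. Their highest share over the 7 NB libraries was 0.250% for GZMA and for GZMB-b, 3.25% for GZMB-a, 0.987% for PRF1, 1.79% for GNLY, 13.8% for NKG7, 0.987% for IFNG and 0.658% for FASLG. Over the 4 AD libraries it was 2.56% for GZMA, 7.69% for GZMB-b, 3.30% for GZMB-a, 2.04% for PRF1, 26.3% for GNLY, 15.8% for NKG7, 0.946% for IFNG and 2.19% for FASLG. Most CD8A shares stood above the range of the same stage. Those not above it were GNLY in NB colon (0.971%) and GZMB-a in NB colon (1.94%) and in NB liver (1.76%). By share these are not told apart from background. The range is taken over 7 NB libraries and is not that of the same library. On the CPM scale GZMB-a was higher in the background barcodes than in CD8A barcodes of NB cecum (91.3 against 48.3), NB colon (45.6 against 3.98) and NB rectum (71.2 against 58.7), and lower in NB liver (3.65 against 20.6). Its shares in NB cecum and rectum pointed the other way, so nothing is read from GZMB-a in the NB CD8A barcodes. GNLY in AD duodenum was within the range before thinning (19.1%), but its share after thinning to 1000 UMIs was 11.7%, against at most 4.83% in the background barcodes. In AD CD4 barcodes the unthinned shares of GNLY (1.74% to 20.7%) and of GZMB-b (0.888% to 5.79%) were within the background range of their stage in all 4 libraries, those of NKG7 and GZMB-a in 3 of 4 and those of GZMA and PRF1 in AD duodenum. At 1000 UMIs per barcode this did not hold in every library. The highest AD CD4 share was then 7.94% for GNLY and 1.98% for GZMB-b, against at most 4.83% and 1.86% in AD background barcodes. In CPM, GZMB-b ran from 6.74 to 48.3 in AD CD4 barcodes, against at most 8.46 in AD background barcodes. GZMB-a ran from 3.83 to 43.2 CPM, against at most 4.03. In NB CD4 barcodes of colon the shares of NKG7, GZMB-a and IFNG were within the NB background range, at 6.14%, 1.75% and 0.877%.

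Genes around the effector programme gave the setting of the class difference. The largest differences among the listed genes outside the members were GZMM, a granzyme (5.93 on the log2 scale), CTSW, a papain-like protease of killer lymphocytes (5.27), and CCL5, a chemokine of CD8 T cells (4.71). Of 7 tested granule proteins and other granzymes, 4 were higher in CD8A barcodes (also GZMK, 2.26, and CST7, 1.11) and 2 were higher in CD4 barcodes, namely the granule proteoglycan SRGN (-0.57) and the granzyme-activating protease CTSC (-0.51). The median over this list was 1.11, beside 0.0018 over all genes tested.

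No gene of the release machinery passed the test. Of 7 tested granule release genes, among them UNC13D, RAB27A and STX11, 0 passed by edgeR in either direction. At an unadjusted p under 0.05 the counts were 1 higher and 3 lower, and pydeseq2 called 0 higher and 1 lower. The list median was -0.03.

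Most of the tested transcription factors and killer receptors were higher in CD8A barcodes. Of 8 transcription factors, 5 were higher in CD8A barcodes, with log2 differences of 4.49 for ZNF683, a factor of tissue-resident lymphocytes, 2.36 for EOMES, 1.91 for RUNX3, 1.45 for HOPX and 1.15 for TBX21, while PRDM1 was higher in CD4 barcodes (-1.10). Of 12 killer cell receptors and adaptors, 9 were higher in CD8A barcodes and 0 in CD4 barcodes by edgeR (2 at an unadjusted p under 0.05 and 1 by pydeseq2). They included KLRD1 (4.48), KLRJ1 (4.32), KLRB1 (3.78) and KLRK1, the activating receptor NKG2D (3.68), and the median of the list was 2.11.

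Chemokines of killer cells were also higher in CD8A barcodes, whereas the other tested cytokines did not pass. CCL5, XCL1 (3.68), CCL3 (3.11) and CCL4 (2.98) were the 4 of 9 that were higher in CD8A barcodes, and TNF, LTA, CSF2, TNFSF10 and TNFSF14 did not pass. Among 7 cytokine receptors IL2RB was higher in CD8A (1.27) and IL21R in CD4 barcodes (-0.32). Of 6 naive T cell genes, CCR7 (-1.96), LEF1 (-1.33), IL7R (-1.16) and S1PR1 (-1.16) were higher in CD4 barcodes, 1 was higher in CD8A barcodes and 1 did not pass. The integrins ITGAE (2.59) and ITGA1 (1.59), which hold T cells in epithelium and matrix, were the 2 of 4 tissue residency genes that were higher in CD8A barcodes. FAS, the receptor of FASLG, was higher in CD4 barcodes (-1.47). The counts of 740 genes higher in CD8A and 663 higher in CD4 barcodes fell to 454 and 401 without AD colon, and the count higher in CD4 barcodes to 441 without AD cecum.

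**Figure D2:**
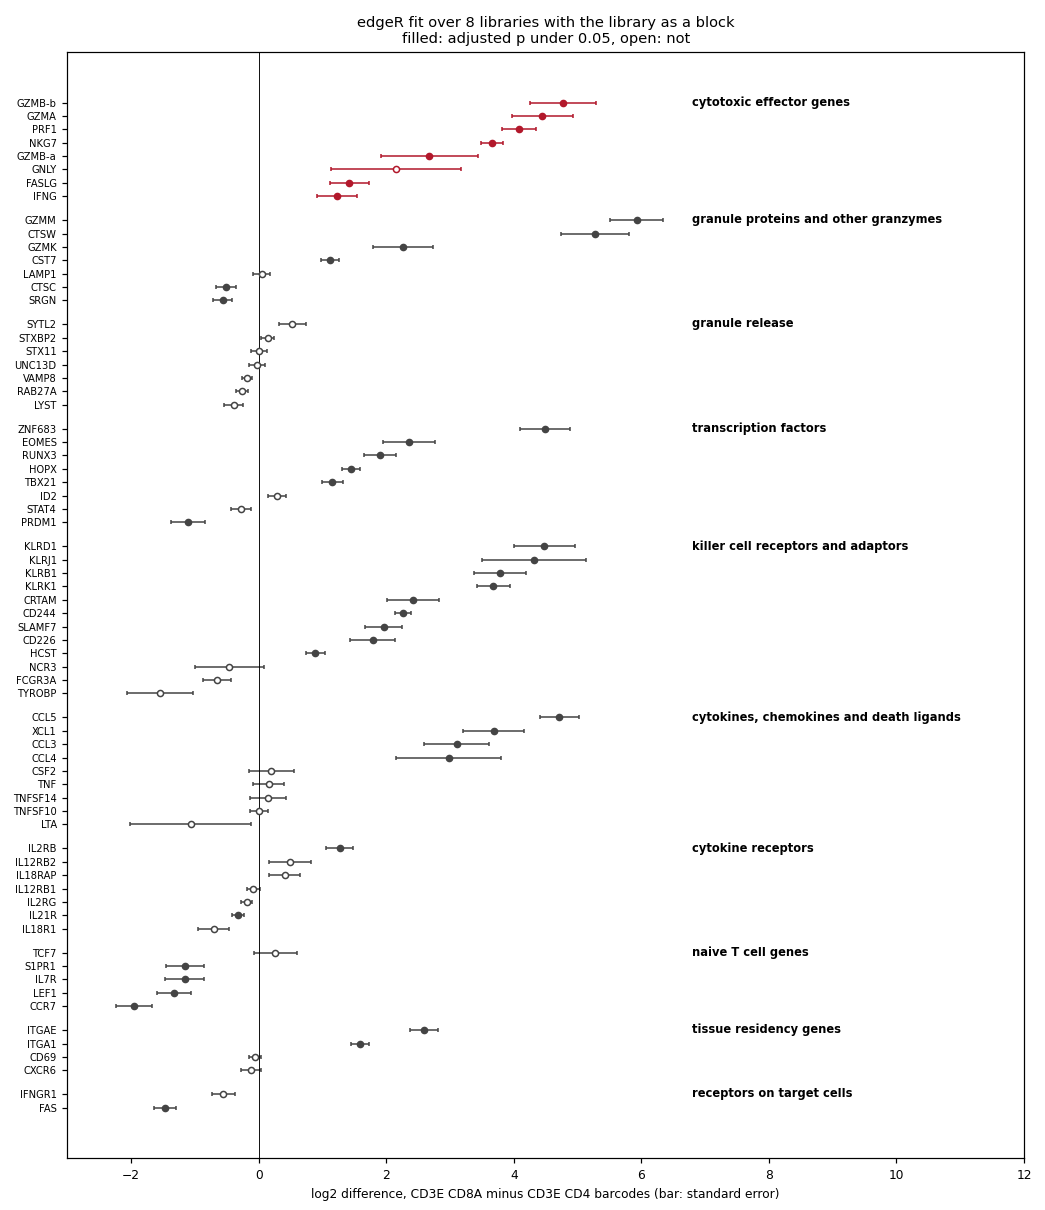
Fitted log2 difference between CD8A and CD4 barcodes (x axis, points with standard errors) for the effector genes (red) and 9 lists of related genes (grey), filled where the edgeR adjusted p was under 0.05. The 7 filled member identifiers lie between 1.23 and 4.77, GNLY is open at 2.16, and the granule release genes are all open near 0. The naive T cell gene that was higher in CD8A barcodes is not drawn.

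NCR1 barcodes without CD3E were rare, and the comparison with CD8A barcodes could not be fitted, because NB liver was the 1 library with at least 50 of them. The 113 NCR1 barcodes of NB liver carried PRF1, NKG7 and IFNG, with GZMA near the CPM of the CD8A barcodes of that library. PRF1 was measured there at 215 CPM (interval 179 to 256) in 54.9% of barcodes, against 108 CPM and 27.6% in the CD8A barcodes of that library. GZMB-b was at 0 of 113 barcodes, and a limit of 3 counts puts the share of barcodes with a UMI at no more than 2.65%, beside 1.17% of the CD8A barcodes. GZMA was found in 7.08% of the NCR1 barcodes at 22.2 CPM, beside 1.62% and 20.2 CPM in CD8A barcodes, and GZMB-a as 7 UMIs in 1 barcode.

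Of the remaining members in the NCR1 barcodes of NB liver, GNLY and FASLG were above and NKG7 below their CD8A levels. NKG7 was measured at 510 CPM in 81.4% and IFNG at 136 CPM in 28.3% of barcodes, beside 736 and 143 CPM in CD8A barcodes. GNLY was at 140 CPM and FASLG at 61.4 CPM, beside 30.1 and 33.4. With 1 library these are values of 2 classes of the same suspension, with no test.

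The NCR1 barcodes of the NB large intestine differed in markers from those of liver. KLRF1, an NK cell receptor, was found in 24.8% of the NCR1 barcodes of NB liver, 2.04% of the 49 in NB cecum and 6.52% of the 46 in NB colon. KIT, the stem cell factor receptor, was found in 23.0%, 71.4% and 60.9% of them. PRF1 was measured at 23.2 CPM in NB cecum and 67.1 in NB colon, and NKG7 at 257 and 248 CPM. FASLG was measured at 74.6 and 23.5 CPM, while GZMA and IFNG stood at 5.15 and 10.3 CPM in cecum and both at 0 in colon. The AD libraries held 2 to 9 NCR1 barcodes without CD3E each, too few for levels. AD cecum also held 78 NCR1 barcodes with CD3E, in which PRF1 was measured at 361 CPM, GZMA at 718 and GNLY at 1627.

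The second comparison set AD against NB barcodes of the same tissue and class, which was possible in cecum and colon. GZMA, GZMB-b, PRF1 and GNLY were higher in the AD than in the NB CD8A barcodes of both tissues, while NKG7 and FASLG differed by smaller ratios and IFNG had a higher CPM in AD in colon and in NB in cecum. As each arm was 1 library, no test was made, and a ratio of 2-fold or more on the scale of log2(CPM + 5) was used as a rule of size. In the CD8A barcodes of cecum 4 of 8 member identifiers were higher in AD by this rule (9.83% of all genes at 10 CPM or more) and 0 lower (12.1%), and in colon 7 of 8 were higher (12.2%) and 0 lower (7.77%). The 7 include GNLY and GZMB-a, whose NB shares in colon are not told apart from background. The median of all genes was 0.07 in cecum and 0.15 in colon on the log2 scale.

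In the CD8A barcodes of cecum, GZMA was 2.43-fold, GZMB-b 2.26-fold, PRF1 4.00-fold and GNLY 4.00-fold higher in AD. FASLG at 2.15-fold stayed under the rule on the log2(CPM + 5) scale (0.96), and so did GZMB-a (0.85), whose NB level lay below that of the background barcodes. NKG7 moved from 494 CPM (interval 451 to 539) in NB to 614 (599 to 630) in AD, and IFNG from 144 (121 to 169) to 86.8 (81.2 to 92.8). The neighbouring gzmA was 9.13-fold higher in AD.

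In colon the NB level of the granzymes and of GNLY rested on few UMIs. GZMA went from 9 UMIs in NB (7.16 CPM) to 769 CPM in AD, a ratio of 107, and GZMB-b from 9 UMIs, all in 1 barcode, to 1176 CPM, a ratio of 164. GNLY went from 19 UMIs in 2 barcodes (15.1 CPM) to 1284 CPM and GZMB-a from 5 UMIs (3.98 CPM) to 105 CPM. No ratio is given for them because their NB shares are not told apart from background. The ratios of GZMA and GZMB-b compare AD with 3 and 1 positive NB barcodes. Of the remaining members, PRF1 was 5.40-fold, IFNG 3.92-fold, FASLG 3.13-fold and NKG7 1.41-fold higher in AD. Their NB levels, the denominators of these ratios, were higher than those of the granzymes.

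At equal depth GZMA, GZMB-b and PRF1 were again found in more AD than NB barcodes. After each barcode was thinned to 1000 UMIs, which left out 0 of 140 NB and 1 of 2642 AD CD8A barcodes in cecum and 0 of 206 and 6 of 3045 in colon, GZMA was detected in 7.86% of the NB and 29.6% of the AD CD8A barcodes of cecum (16.4% and 53.3% unthinned), and in 0.485% and 36.8% in colon (1.46% and 57.0%). GZMB-b went from 5.71% to 32.0% in cecum and from 0 to 31.0% in colon (12.1% to 44.9% and 0.485% to 42.2% unthinned). PRF1 went from 3.57% to 17.8% in cecum and from 3.40% to 18.2% in colon (18.6% to 48.0% and 19.9% to 49.9%). NKG7 was also found in more AD barcodes, in 31.4% and 43.5% in cecum and in 31.6% and 48.6% in colon. IFNG was found in 7.14% and 7.80% of the barcodes of cecum, although its CPM was lower in AD, so no direction is read for it there.

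The stage ratio in cecum moved with the presence of CD8B, which was found in 45.0% of the NB and 69.3% of the AD CD8A barcodes of cecum. In CD8A barcodes with CD8B, an alternative chosen after seeing the data with 63 NB barcodes, the log2 ratios in cecum were 0.47 for GZMA, 0.63 for GZMB-b and 0.92 for GNLY, all under the 2-fold rule, and 1.22 for PRF1. In colon they were 7.13 for GZMA, 8.08 for GZMB-b and 2.31 for PRF1, on the same side as before. IFNG in cecum was -1.24, past 2-fold toward NB.

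In CD4 barcodes the members did not move one way. In cecum 4 of 8 were higher in AD (14.0% of all genes) and 1 lower (13.2%), and in colon 4 higher (17.9%) and 1 lower (7.48%). Both counts of 4 include GZMB-b, and that in cecum GZMB-a (20 of 959 barcodes, 2.09%), whose unthinned AD shares lay within the background range. Their CPM lay above it. GZMB-b was at 48.3 CPM in AD cecum and 35.4 in AD colon, against at most 8.46 in AD background barcodes. GZMB-a was at 43.2 CPM in AD cecum, against at most 4.03. GZMB-b in cecum reversed with no upper limit on genes per barcode (-0.28 on the log2 scale). The lower member was GZMA in cecum, at 0.0044 with doublets left in, and GZMB-a in colon, which reversed with at least 2 UMIs of CD4 required (0.86). IFNG in colon showed the widest gap, with 2 UMIs in NB (3.14 CPM, interval 0.38 to 11.3) against 137 CPM (127 to 148) in AD. FASLG was higher in AD in both tissues, from 6.36 to 31.9 CPM in cecum and from 10.99 to 28.4 CPM in colon. GZMA and GZMB-b were at 0 in the NB CD4 barcodes of colon, so that AD was at least 4.62-fold higher for GZMA against a floor of 3 UMIs. For GZMB-b no bound is given, since its unthinned AD share of 4.41% lay within the background range although its CPM lay above it. GNLY was measured at 109 CPM in NB and 106 in AD cecum, and at 59.6 and 45.3 in colon, with overlapping intervals.

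**Figure D3:**
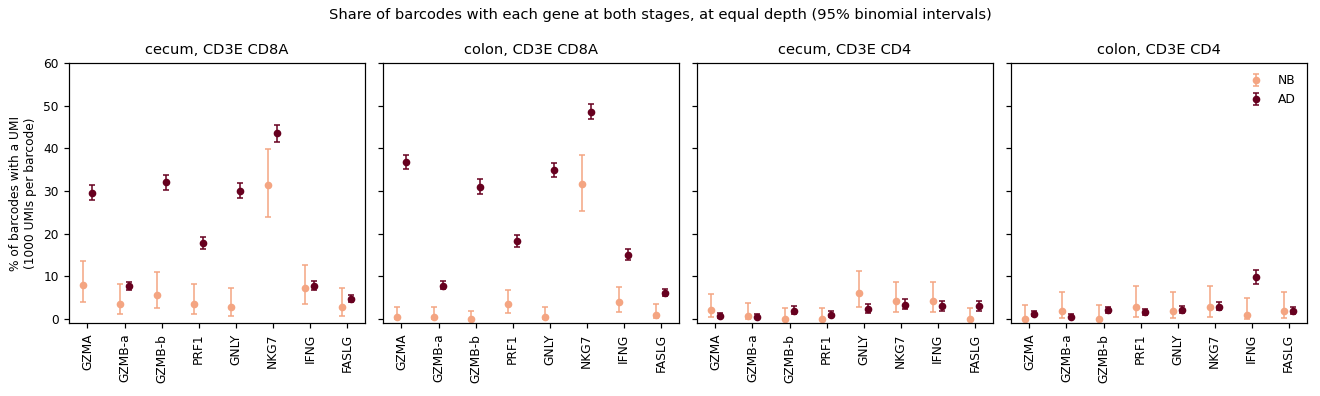
Percent of barcodes with a UMI of each gene after thinning to 1000 UMIs per barcode, in NB (light) and AD (dark) cecum and colon, for CD8A barcodes (left panels) and CD4 barcodes (right panels), with 95% binomial intervals. In CD8A barcodes of colon GZMA stood at 0.485% in NB and 36.8% in AD, whereas NKG7 was already at 31.6% in NB.

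The smaller NB classes of the small intestine were given as values. The 43 CD8A barcodes of NB jejunum held NKG7 in 93.02% and FASLG in 27.9% of barcodes, PRF1 in 18.6% and GZMA, GZMB-b and GNLY in 4.65% each. The AD jejunum CD8A barcodes held GZMA in 75.0%, GZMB-b in 66.0%, GNLY in 64.1%, PRF1 in 56.5% and NKG7 in 88.7%. The same split between a broad NKG7 and rare granzyme signal was seen in the 26 CD8A barcodes of NB ileum, where 21 held NKG7, 6 PRF1 and 1 GZMA.

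Among the related genes, the chemokines CCL3, CCL4 and CCL5 and 3 residency genes were higher in the AD CD8A barcodes, and the naive genes CCR7, LEF1 and S1PR1 lower. CCL5 was higher by 3.88 in cecum and 4.32 in colon on the log2(CPM + 5) scale, CCL3 by 1.32 and 3.98 and CCL4 by 1.02 and 4.58. XCL1 was at -0.11 and -0.97, short of 2-fold toward NB. Of 4 tissue residency genes 3 were higher in both tissues, namely CXCR6, ITGA1 and ITGAE, and the list median was 1.64 in cecum and 1.67 in colon. CCR7 was lower in AD by the same scale in both (-2.0 and -4.32), as were LEF1 (-2.09 and -2.86) and S1PR1 (-2.14 and -1.82), whereas the naive gene IL7R was at 1.49 in cecum and -0.18 in colon.

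The other killer cell genes were mixed. Of 11 killer cell receptors and adaptors at 10 CPM or more in cecum, 2 were higher and 3 lower in AD by the 2-fold rule, and of 12 in colon 5 were higher and 2 lower. SLAMF7 differed by 0.92 in cecum and 2.75 in colon, KLRK1 by 1.27 and 0.77, KLRJ1 by 1.25 and 1.34 and the granule release gene SYTL2 by 2.47 and 2.56. CTSW was lower in AD (-1.55 in cecum and -1.99 in colon), with 819 to 3367 CPM in the CD8A barcodes of the 4 NB libraries against 282 to 332 CPM in the 4 AD libraries. GZMM differed by 0.03 and -0.17, and KLRB1 by -1.52 and -0.94. GZMK was unequal between the tissues, at -0.10 in cecum and 2.48 in colon, where the NB level was 4.78 CPM. RUNX3 was higher in AD in both tissues (2.15 and 1.76), and TBX21 differed by -0.09 and 1.16.

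The effector genes were next counted per barcode, using GZMA, GZMB (both identifiers together, although their patterns differ), PRF1, GNLY, IFNG and FASLG at 1000 UMIs per barcode. At least 3 of these 6 genes were found in 5.85% of the CD8A barcodes of AD duodenum, 32.6% in jejunum, 18.1% in cecum and 24.2% in colon. In the NB libraries the share was 1.43% in cecum, 0 in colon, 3.16% in rectum and 0.589% in liver. CD4 barcodes of the AD libraries reached 0.103% to 0.533%, and those of the NB libraries were at 0 in cecum, colon and liver and at 0.714% in rectum (3 of 420 barcodes, exact interval 0.148% to 2.07%). None of the 6 was found in 74.3% to 90.8% of the NB CD8A barcodes of these 4 libraries and in 17.5% to 57.8% of the AD ones. T cell barcodes with neither coreceptor held 3 or more in 3.33%, 26.0%, 18.4% and 21.7% of AD duodenum, jejunum, cecum and colon, the same order of tissues as the CD8A barcodes.

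**Figure D4:**
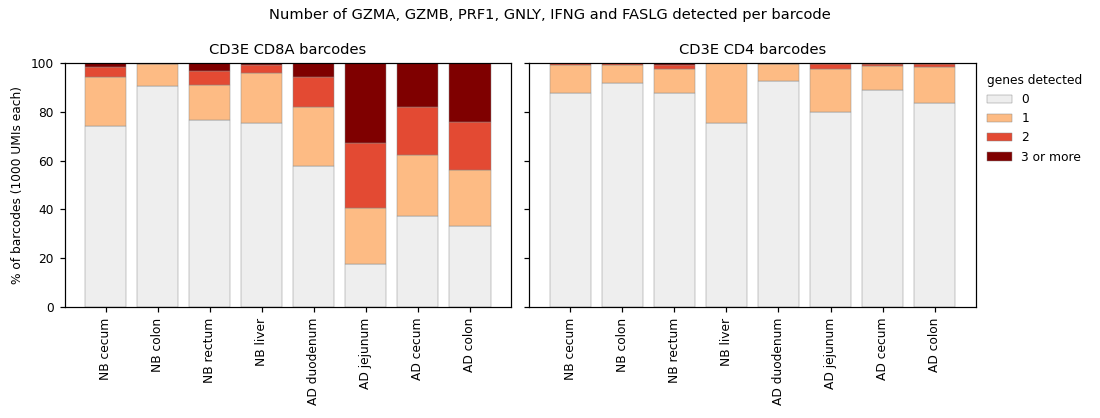
Percent of CD8A (left) and CD4 (right) barcodes of 8 libraries with 0, 1, 2 or at least 3 of the genes GZMA, GZMB, PRF1, GNLY, IFNG and FASLG, at 1000 UMIs per barcode. The dark segment of 3 or more genes reached 32.6% in AD jejunum and stayed at or under 3.16% in the NB CD8A barcodes.

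Within the AD CD8A barcodes, GZMA and GNLY were found more often where GZMB was also found. GNLY was detected in 39.0%, 55.1%, 54.9% and 65.7% of barcodes with GZMB in AD duodenum, jejunum, cecum and colon, against 6.36%, 29.4%, 17.1% and 19.4% of those without. GZMA gave 39.4%, 59.2%, 49.1% and 61.7% against 11.3%, 30.5%, 19.4% and 24.3% in the same order. PRF1 differed less, with 17.3% and 12.5% in duodenum and 24.3% and 15.2% in colon, and FASLG gave 5.22% and 5.56% in jejunum. NKG7 was close to level between barcodes with and without GZMB in jejunum (56.7% and 54.2%), cecum (46.1% and 42.2%) and colon (52.1% and 46.9%). These are shares within 1 animal, given as a description.

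T cell barcodes without CD4 and CD8A carried the programme in the adult as well. In AD cecum, colon and jejunum they held GNLY at 1254, 1715 and 2188 CPM and PRF1 at 227, 238 and 223 CPM, beside 910, 1284 and 1944 CPM of GNLY and 220, 228 and 318 CPM of PRF1 in the CD8A barcodes. In AD duodenum the values were 274 and 75.8 CPM. The 3546 such barcodes of NB liver, the most numerous T cell barcodes there, held GZMA at 0.998 CPM and PRF1 at 43.8 CPM in 391 barcodes. In this group the absence of a CD4 or CD8A UMI does not show that the cell lacked the coreceptor.

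Several members were not restricted to lymphocytes. Barcodes with at least 2 UMIs of CPA3, the mast cell carboxypeptidase (a gate chosen after values were seen), held GZMB-a in 92.7% to 100% of barcodes of the 7 libraries with at least 20 of them, at median depths of 1987 to 3744 UMIs. The level was 18960 to 50553 CPM, beside 3.98 to 224 CPM in CD8A barcodes. GNLY was measured in the same barcodes at 916 to 12720 CPM, whereas GZMA was at 0 in those of NB cecum, colon and rectum. GZMB-b in them differed by library, with 8478 CPM in AD duodenum, 1993 in AD jejunum and 526 in NB cecum, 1 UMI each in NB ileum, NB rectum and AD colon and 0 in NB colon.

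Most GZMB-a UMIs of NB cecum, ileum, colon and rectum lay in those CPA3 barcodes, but not those of NB duodenum (0.521%) and jejunum (15.7%), which held 2 and 3 such barcodes. They held 91.0% of the GZMB-a UMIs of NB cecum, 81.6% of NB ileum, 77.3% of NB colon and 75.3% of NB rectum, and 72.1%, 67.0%, 36.4% and 35.5% of those of AD duodenum, jejunum, cecum and colon. The part of free RNA from such cells in the T cell values of this identifier was not tested.

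GNLY was also detected in plasma cell barcodes, taken as those with at least 2 UMIs of MZB1 (chosen after values were seen). It was measured there at 455 CPM in 62.8% of barcodes in NB cecum, and at 80.5, 252, 66.9 and 104 CPM in 31.5%, 52.3%, 29.2% and 41.0% of barcodes in AD duodenum, jejunum, cecum and colon, but in 0.779% of such barcodes in NB ileum and 6.31% in NB colon. These barcodes were deeper than the T cell classes, with median depths of 9455 to 13056 UMIs in NB cecum and the 4 AD libraries, and after thinning to 1000 UMIs the shares of these 5 libraries were 29.5%, 4.20%, 16.6%, 1.24% and 8.09%. Those of AD duodenum and AD cecum lay within the thinned AD background of up to 4.83% and are read as background. In B cell barcodes (CD79B or MS4A1) the highest GNLY share was 28.2% unthinned and 11.197% thinned over NB libraries. Over AD libraries it was 32.0% and 10.6%.

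NKG7 was shared with macrophages. Barcodes with C1QA or CSF1R and without CD3E and NCR1 held NKG7 in 19.2% to 80.0% of barcodes over the 11 libraries, at 87.2 to 838 CPM, which overlapped the CD8A range of 494 to 899 CPM. PRF1 was at 0 to 5.59 CPM and GZMA at 0 to 6.19 CPM in the same barcodes. These barcodes held 93.2%, 95.1% and 88.9% of the NKG7 UMIs of NB duodenum, jejunum and ileum, 54.9% of those of NB liver and 26.1% of those of NB rectum. In AD duodenum and jejunum they held 37.2% and 52.2%.

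**Figure D5:**
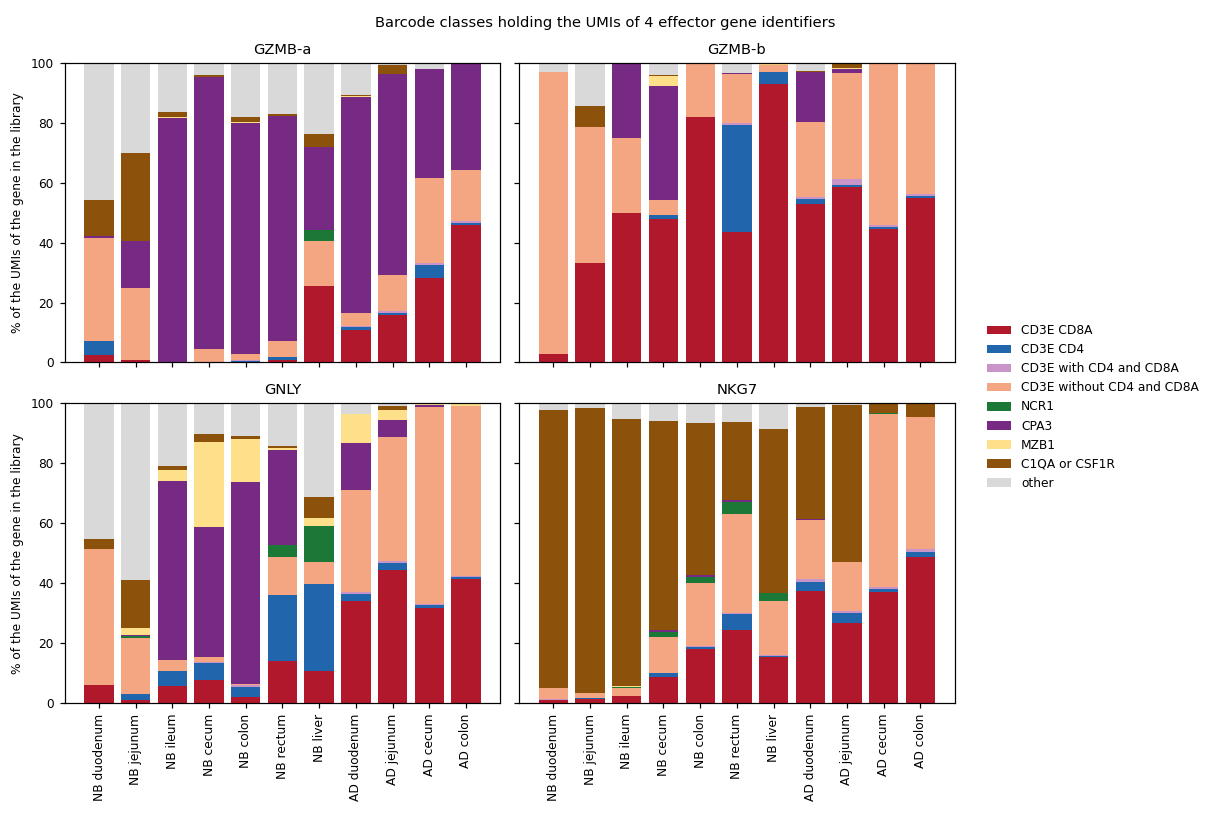
Percent of all UMIs of GZMB-a, GZMB-b, GNLY and NKG7 in a library that lay in each barcode class, for 11 libraries (stacked bars summing to 100%). CPA3 barcodes held 91.0% of the GZMB-a UMIs of NB cecum, and barcodes with C1QA or CSF1R held 95.1% of the NKG7 UMIs of NB jejunum.

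For each member, the genes with the most similar levels over the 20 pools of a library and class with at least 50 barcodes were listed, as a description over pools that share libraries. The 20 pools included CD8A barcodes of NB abomasum and CD8A and CD4 barcodes of NB salivary gland. Among 7591 genes, PRF1 was most like KLRK1 (Spearman rho 0.93), NUCB2 (0.92) and CD244 (0.91), and IFNG most like TBX21 (0.81). GZMA, GZMB-a and GZMB-b all had ENSBTAG00000038080, an identifier without a symbol in the gene table, as the nearest gene, with rho of 0.91, 0.84 and 0.88. GNLY was nearest to GSTP1 (0.81), NKG7 to NUCB2 (0.91) and FASLG to DCAF4 (0.83).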

How the data were processed

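The deposited values are raw UMI counts per gene and barcode, made by the authors with Cell Ranger 3.1.0 on the ARS-UCD1.2 cattle genome. Kept barcodes had 500 to 4000 genes detected, fewer than 50000 UMIs and a mitochondrial share below 40%, and doublets were removed by a nearest-neighbour score against simulated doublets (0.8% per 1000 barcodes). Classes were set by UMIs of CD3E, CD8A, CD4 and NCR1. Members and gene lists were chosen with earlier results of these data known; named genes were the members, 9 fixed lists and the 3 genes most like each member. Counts were summed per library and class. CD8A and CD4 sums were tested with edgeR 4.0.16 (R 4.3.3), TMM scaling, a filter on low counts and Benjamini-Hochberg adjustment, after a check on simulated counts, with pydeseq2 0.5.4 as an alternative. Other values came from Python 3.11.15. Intervals were exact Poisson (CPM) and Clopper-Pearson (shares) at 95%. AD and NB were compared as log2(CPM + 5) without a test. The NB reticulum, omasum, abomasum and salivary gland libraries entered no comparison of classes or stages. NB abomasum (58 CD8A barcodes) and NB salivary gland (396 CD8A and 600 CD4 barcodes) were among the 20 pools used to list similar genes. No sequence was printed, since none was in the files used here. Values of 2 other genes are not reported here.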

Additional observations from a re-analysis of the deposited data

Results flagged for a closer look

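IFNG had log2 differences of AD minus NB of opposite sign between the tissues in CD8A barcodes, -0.70 in cecum and 1.87 in colon, but its thinned shares in cecum were 7.14% in NB and 7.80% in AD, so no direction is read there. GZMA in CD4 barcodes also differed in sign, at -1.26 in cecum and 2.42 in colon, and so did GZMB-a in CD4 barcodes, at 2.56 in cecum and -2.76 in colon. Each arm was 1 library, and none of these differences between tissues was tested. The GZMB-a value in colon rested on 35 UMIs in 2 NB barcodes, and that in cecum on 142 UMIs in 20 AD barcodes.

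Some members were also detected in CD8A barcodes of 2 NB tissues outside the comparisons. In the 58 CD8A barcodes of NB abomasum, NKG7 was detected in 93.1%, PRF1 in 22.4%, IFNG in 8.62% and GZMB-b in 3.45% of barcodes. The GZMB-b value is 2 barcodes, under the limit of 3 counts, and nothing is read from it. In barcodes with EPCAM, COL1A2 or PECAM1 of NB abomasum the shares were 0.847% for NKG7, 0.0137% for PRF1, 0.0273% for IFNG and 0 for GZMB-b. In the 396 CD8A barcodes of NB salivary gland, PRF1 was detected in 34.8% and NKG7 in 31.6% of barcodes, while GZMA and GNLY were at 0, and a limit of 3 counts puts the share of barcodes with a UMI at no more than 0.758%. In the 135 background barcodes of the salivary gland PRF1 was detected in 2.96% and NKG7 in 8.15%. After thinning to 1000 UMIs the salivary gland shares were 7.34% for PRF1 and 12.2% for NKG7.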

How the results depend on the processing

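The count of genes higher in CD8A barcodes was 740, with 314 in NB libraries alone, 1196 in AD libraries alone, 186 without the library block and 454 to 735 leaving out 1 library each. The count higher in CD4 barcodes was 663, with 187, 1267, 94 and 401 to 716 under the same settings. Among the members, GNLY reversed in the NB libraries alone (-0.63). Without the library block the calls of GZMB-a, IFNG and FASLG were lost (edgeR adjusted p = 0.148, 0.448 and 0.0539), and GZMB-a was also lost in NB libraries alone (0.573) and IFNG in AD libraries alone (0.172). Requiring 2 UMIs of CD8A or CD4, a fit over 7 libraries without NB liver, moved IFNG to 0.0516 and GNLY to 0.0368. Leaving out barcodes with COL1A2, COL3A1, C1QA, EPCAM or CPA3, added after seeing the data and a fit over 6 libraries without NB liver and NB cecum, moved IFNG to 0.127 and GNLY to 0.0156 by the same test, beside 0.0314 for GNLY without NB liver alone and 0.0567 for IFNG without NB cecum alone. Of the member differences, 126 kept their call and direction under an alternative, 13 lost it, 4 gained it and 1 reversed. Other size factors gave 715 and 683 genes, no filter on low counts 876 and 820, and pydeseq2 879 and 831.

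Between stages, in CD4 barcodes 8 values were past 2-fold toward AD (5 with at least 2 UMIs of the coreceptor) and 2 toward NB, which fell to 1 with doublets left in, with both coreceptors kept and without barcodes holding the other cells' genes. In CD8A barcodes 0 were past 2-fold toward NB, and 1 with CD8B required. The reversals were GZMB-b in CD4 cecum with no upper limit on genes (-0.28), GZMA in CD4 cecum with doublets left in (0.0044) and GZMB-a in CD4 colon with at least 2 UMIs of CD4 (0.86) or without the other cells' genes (0.44). Of the stage ratios 209 stayed within 1 counting interval, 59 moved and 4 reversed. The causes were not tested. Of the shares 118 of 136 moved on thinning. Thinning removes UMIs and so lowers shares by design, and this count does not measure how stable they are. No paired analysis was possible because each tissue and stage was 1 library and its replicate number only names it. The comparison of NCR1 with CD8A barcodes and its alternatives were not run, since 1 library had enough NCR1 barcodes. The NB granzyme values of colon in CD8A barcodes rest on 5 to 9 UMIs of 1256334 in the class, beside 1015051 in NB cecum. IFNG in NB CD4 barcodes of colon rests on 2 UMIs, so its ratio is not given.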
